A study of Mus musculus with 10 samples.

Results

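Transcript levels were compared between the reprogrammed line piPS-2F and the embryonic stem cell line pESC-B, 4 of the 10 single-colour Illumina mouse BeadChip arrays of the series. The line piPS-2F is an induced pluripotent line that came from neural stem cells of parthenogenetic origin (pNSC) after overexpression of Oct4 and Klf4, although 1 label of replicate 2 names Klf5 in place of Klf4. The line pESC-B consists of embryonic stem cells of parthenogenetic origin that had been sorted on SSEA-1, a surface glycan of mouse pluripotent cells, and no other group is labelled as sorted. Parthenogenetic cells arise from an egg without a sperm, so both lines carry maternal chromosomes only. The other arrays, 2 for each line, hold pNSC, neural stem cells from a female (fNSC) and OG2 embryonic stem cells, also female (fESC). No strain, passage or culture condition is given for either line, and each is 1 line. The design text speaks of samples analysed in duplicate, so the 2 arrays of a line may be technical repeats. All p-values below therefore reflect no more than the scatter between such repeats.

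The detection p-value had to be under 0.01 on both arrays of at least 1 of the lines for a probe to enter. This left 7830 genes of the 16593 with a named probe, and 6889 of them were detected on all 4 arrays. Levels are log2 signals after background correction and quantile normalization, and a difference is piPS-2F minus pESC-B with its standard error (SE). A gene was called, and is said to have risen or fallen in piPS-2F, when limma gave an adjusted p under 0.05 and the lines differed 2-fold or more. The mean intensity was 290.6 and 287.1 on the piPS-2F arrays and 326.6 and 287 on those of pESC-B, and between 11108 and 11385 probes were detected per array. Levels correlated at 0.989 and 0.991 between the duplicates of each line, and at 0.938 to 0.941 between the lines, across genes that are not independent replicates.

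Reprogramming resets the expression programme of a somatic cell to one that resembles the inner cell mass of the blastocyst, and mouse pluripotent cells hold that state under the transcription factors Oct4, Sox2 and Nanog and under opposed LIF, FGF and Wnt signals. Parthenogenetic cells lack a paternal genome, so genes that are expressed only from the paternal copy are normally silent in them. DNA methylation keeps many germline genes silent in somatic cells, and pluripotent cultures relax part of that control.

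In all, 859 genes (11% of those tested) differed between the lines, 412 higher (5.26%) and 447 lower (5.71%) in piPS-2F. The counts of called genes in each gene list below are to be read against these shares. Every gene that differed by at least 2-fold also passed the adjusted p, so the fold minimum alone set the count, and 2925 genes passed the adjusted p at any fold. The median difference over all genes was -0.02. With arrays scaled to a common median in place of quantiles that median moved to -0.14, and 257 genes were higher and 494 lower (34.2% higher, against 48% as reported), and none of the reported genes was called the opposite way. Of the genes tested, 271 were detected on both piPS-2F arrays and neither pESC-B array, and 192 the other way round. For these the fold is a lower bound, which sets the brighter line against the higher of the dim probe's own signal and the lowest detected signal of each dim array. A gene that passed the detection filter through 1 line alone had to be higher there.

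Slc4a3, the gene of a chloride and bicarbonate exchanger, had log2 signals of 12.01 and 12.01 in piPS-2F and 6.60 and 6.68 in pESC-B. The difference of 5.37 ± 0.13 (SE, n = 2 arrays a line, adjusted p = 2.4e-09) was the largest rise, and the other probes of Slc4a3 gave 5.15 and 4.08. Cdc42ep2, an effector of the small GTPase Cdc42, stood at 10.13 and 10.17 against 5.99 and 5.91, a difference of 4.20 ± 0.18. Slc4a3 and Cdc42ep2 were both low in fESC as well, at 6.65 and 6.86 and at 5.51 and 4.97. The arrays of the lines did not overlap for 5379 of the 7830 genes, the 859 called ones among them.

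Several of the other leading genes were not detected in pESC-B. The lens crystallin gene Crygd was at least 9.22-fold higher, Wdr20rt at least 9.49-fold and Txnip, which encodes an inhibitor of thioredoxin and of glucose uptake, at least 6.53-fold. The lysozyme genes Lyz2, at least 5.90-fold, and Lyz1, by 3.42 ± 0.23, rose as well, and as near-identical copies they may share signal. Others among the leading genes were Ipp (3.66 ± 0.14), the endothelial guidance receptor gene Robo4 (3.56 ± 0.14), Rcsd1 (3.45 ± 0.26), the X-linked Xlr4a (3.41 ± 0.12), Pramel37 (at least 5.86-fold), the alpha-galactosyltransferase gene A3galt2 (at least 5.19-fold) and the glutathione transferase gene Gsta3 (3.14 ± 0.14). Gsta3 and Xlr4a were at 10.72 and 10.59 and at 12.58 and 12.58 in fESC, close to piPS-2F, while Txnip was at 5.49 on both fESC arrays, close to pESC-B.

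**Figure D1:**
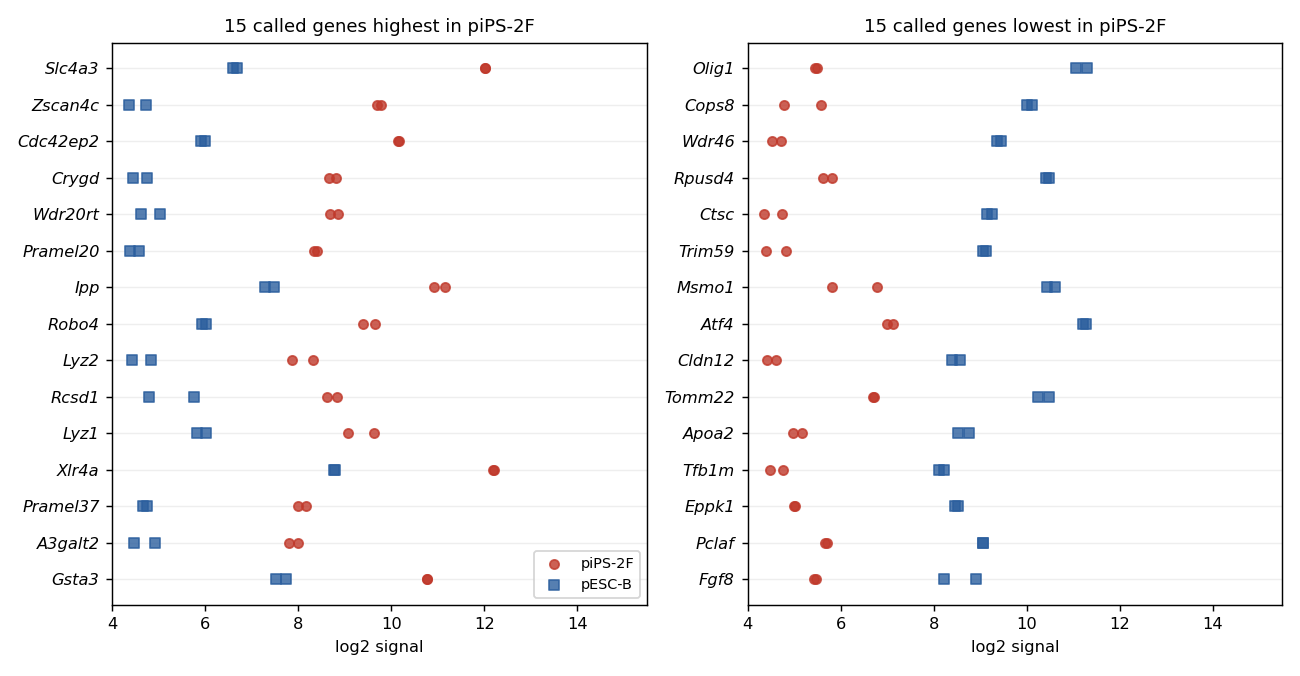
Log2 signal (x axis) of the 15 called genes that were highest (left) and lowest (right) in piPS-2F, without clone-type symbols. Each gene has 2 red circles (piPS-2F arrays) and 2 blue squares (pESC-B arrays), and the colours do not overlap in any row; the widest gaps are those of Slc4a3 (5.37) and Olig1 (-5.70).

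Olig1, which encodes a helix-loop-helix factor of oligodendrocyte precursors, fell most. It stood at 5.50 and 5.45 in piPS-2F and at 11.06 and 11.29 in pESC-B, a difference of -5.70 ± 0.14 (adjusted p = 2.4e-09). Its level in fESC was 9.12 and 9.33, and in pNSC 14.60 and 14.76, so both piPS-2F arrays were the lowest of the 10. Cops8, a subunit of the COP9 signalosome, fell by 4.88 ± 0.21, Wdr46, a factor of ribosome assembly, at least 15.4-fold, and Rpusd4, a mitochondrial RNA pseudouridine synthase, fell by 4.73 ± 0.20. Ctsc (cathepsin C) was at least 13.3-fold lower and Trim59, a ubiquitin ligase gene, at least 12.4-fold lower. Msmo1, an enzyme of cholesterol synthesis, fell by 4.23 ± 0.27. Tomm22, part of the mitochondrial import pore, fell by 3.65 ± 0.14, Tfb1m, a mitochondrial ribosomal RNA methyltransferase, was at least 6.53-fold lower and Pclaf, a partner of the replication clamp PCNA, fell by 3.38 ± 0.16.

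In 3 of the lists that hold these genes few other members were called. Of 9 signalosome subunits tested, Cops8 fell, Cops7b rose by 1.05 ± 0.15 and the other 7 were not called. The Cops7b call ended with an offset of 50, with median scaling, with averaged probes and without pESC-B replicate 2. Of 35 ribosome assembly and pseudouridylation genes, Wdr46 and Rpusd4 fell and Tsr2 rose, with a list median of 0.10. Of 12 enzymes of cholesterol synthesis, Msmo1 fell and Nsdhl rose by 1.32 ± 0.18, and the median was -0.16. With averaged probes the calls of Nsdhl and Tsr2 ended. Cops8, Rpusd4, Trim59, Msmo1, Tomm22, Tfb1m and Pclaf were each read by 1 kept probe. Both Wdr46 probes (-4.79 and -4.71) and all 3 Ctsc probes (-4.66, -2.63 and -2.12) fell. Probe sequences could not be checked against the genome of either line. For a gene read by 1 probe, less transcript and a weaker probe match thus cannot be told apart.

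The low genes were set beside the neural lines, which share no array with piPS-2F or pESC-B; this comparison was chosen after the values were seen. Between pNSC, the cell type from which piPS-2F was made, and fNSC, 1045 of 7977 genes were called (13.1%), 468 higher (5.87%) and 577 lower (7.23%) in pNSC. Of the 447 genes lower in piPS-2F, 329 were tested by the same probe in the neural lines, and 52 of these (15.8%) were also lower in pNSC than in fNSC, against 5.55% of all 6663 genes tested in both comparisons. The opposite direction was also more frequent than among all genes, with 35 (10.6%) higher in pNSC against 4.5%. Of the 412 genes higher in piPS-2F, 209 could be compared, and 30 (14.4%) were higher and 23 (11%) lower in pNSC. Genes that differed in 1 comparison thus differed more often in the other, in either direction.

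Of the 15 lowest genes, 9 were also lower in pNSC than in fNSC. Trim59 stood at 8.80 and 8.34 in fNSC, 4.46 and 4.68 in pNSC, 4.40 and 4.82 in piPS-2F, 9.13 and 9.06 in pESC-B and 9.45 and 9.28 in fESC. Cldn12, a claudin gene, stood at 10.43 and 10.27 in fNSC, 4.60 and 5.13 in pNSC, 4.62 and 4.43 in piPS-2F, 8.57 and 8.39 in pESC-B and 8.20 and 8.10 in fESC. In both genes the arrays of pNSC and piPS-2F were low and those of the other 3 lines high, with no overlap. Cops8, Rpusd4, Ctsc, Apoa2, Tfb1m and Pclaf had the same order, while Msmo1 in pNSC (9.43 and 9.42) lay close to the other 3 lines and far above piPS-2F. At the other end Cdc42ep2 was high in pNSC (9.24 and 9.21) and piPS-2F, and Lrp6 in pNSC (7.60 and 7.83) and piPS-2F (7.27 and 7.30) against 5.14 and 4.87 in pESC-B. The source of these shared levels, transcript or probe match, was not tested.

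**Figure D2:**
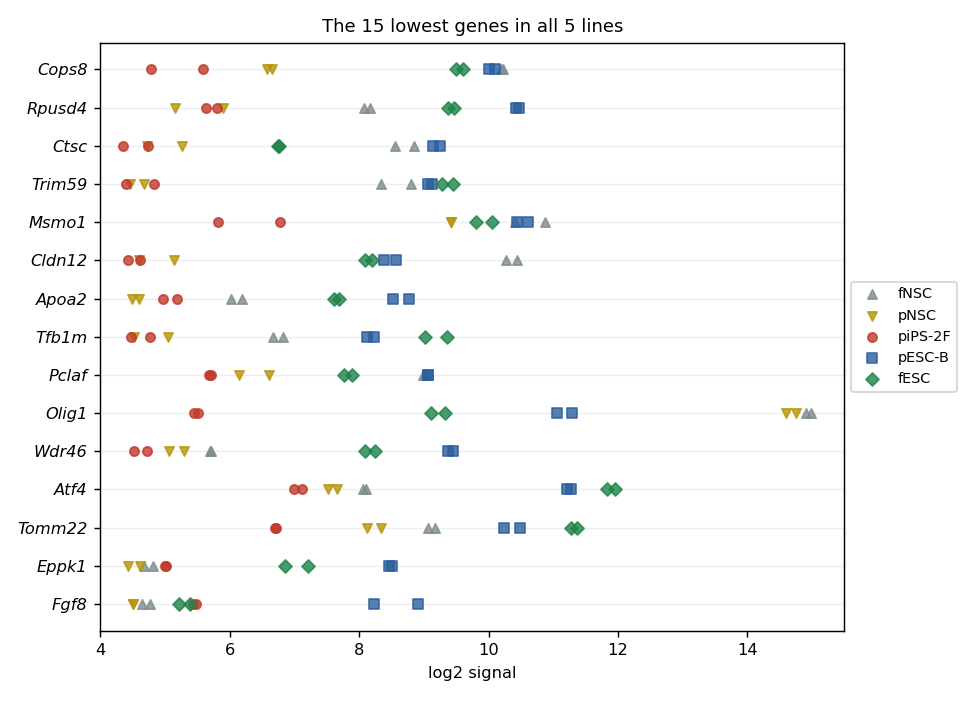
Log2 signal (x axis) on all 10 arrays of the 15 called genes lowest in piPS-2F, with 2 symbols for each of the 5 lines. In the upper 9 rows, Cops8 to Pclaf, the genes were also called lower in pNSC than in fNSC, and the pNSC and piPS-2F symbols lie to the left of the other 3 lines, for Msmo1 with pNSC close to them.

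Of 36 listed pluripotency genes, 30 were tested, 2 rose and none fell (median 0.04, against -0.02 for all genes). Both lines held the defining transcripts at high levels: all 6 pluripotency markers were detected on every array, with summed linear signals of 51940 to 56300 in piPS-2F and 53240 to 60880 in pESC-B. Eras, a Ras-like gene of embryonic stem cells, rose from 7.69 and 7.97 to 9.71 and 10.02 (2.03 ± 0.17), and Prdm14, a repressor of FGF signalling and DNA methyltransferase genes, was at least 1.81-fold higher (1.18 ± 0.14), a call that ended with an offset of 50, with median scaling and when the 4 arrays were normalized and fitted alone. Klf5 differed by -0.74, Zfp42 by 0.69 and Nr5a2 by 0.70, all under the 2-fold minimum. No gene of the LIF and Stat3 (11 tested), telomere (11), Polycomb (19), histone lysine methylation (23) or Lin28 and small RNA (12) lists was called.

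A number of genes of the early embryo, oocyte and germline rose in piPS-2F, and none of those tested fell. Their lists have many members that neither line expressed above the detection limit, and several of the tested ones passed only through piPS-2F and so had to be higher there. Of 22 genes of the 2-cell stage, 9 had no kept probe and 8 no probe at all, and 4 of the 5 tested rose (median 1.70), all 4 undetected in pESC-B. Zscan4c, which marks a transient state of embryonic stem cells tied to telomere elongation, stood at 9.69 and 9.77 against 4.72 and 4.36 (at least 18.4-fold) and at 11.25 and 10.92 in fESC. Pramel20 stood at 8.35 and 8.40 against 4.37 and 4.58 (at least 7.19-fold), with 8.85 and 8.64 in fESC, and Tcstv3 and Tcstv1 were at least 1.71-fold and 1.53-fold higher, calls that ended with an offset of 50, Tcstv1 also without pESC-B replicate 1. For Zscan4c and Pramel20, which belong to families of near-identical copies, the probe may read more than 1 member.

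Of 17 oocyte and maternal effect genes, 7 were tested and 4 rose (median 1.38). Gdf9, a growth factor secreted by the oocyte, stood at 8.39 and 7.81 against 5.58 and 5.05 (2.78 ± 0.26, adjusted p = 2.2e-05), with 5.88 and 6.53 in fESC. Khdc3, a member of the subcortical maternal complex, rose by 2.35 ± 0.25, Nlrp14 was at least 2.69-fold higher and Tle6, another member of that complex, rose from 8.27 and 8.27 to 9.74 and 9.55. Ooep, also of that complex, differed by 0.35 and Padi6, an oocyte enzyme gene, by -0.09. Nanos3, an RNA-binding protein that keeps primordial germ cells alive, was at least 5.10-fold higher (7.68 and 8.08 against 5.05 and 5.41, with 4.87 and 4.76 in fESC), and among the other germ cell specification genes, beside Prdm14, Tfap2c, Dppa3 and Dnd1 differed by -0.46, -0.39 and -0.11.

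Of 29 germline genes that DNA methylation silences in somatic cells, 13 were tested, 5 rose and none fell (median 0.96), with 10 of 13 above 0. Tex19.1, a repressor of retrotransposons, stood at 11.86 and 12.15 against 10.15 and 10.29 (1.78 ± 0.21, adjusted p = 0.00012). Taf7l, a testis form of a general transcription factor, rose by 1.75 ± 0.20, the testis tubulin gene Tuba3a by 1.59 ± 0.18 and Stk31 by 1.37 ± 0.21, a call that ended with an offset of 50. Tex19.1 (11.83 and 11.88) and Taf7l (7.83 and 7.35) were in fESC at the level of piPS-2F. Smc1b, the cohesin subunit of meiosis, rose by 1.88 ± 0.13 (7.80 and 7.66 against 5.78 and 5.92). Dazl, Mov10l1 and Piwil2 differed by 0.89, 0.97 and 0.96, under the minimum. The enzymes that methylate DNA differed little: of 5 writers none was called, with Dnmt1 at -0.18, Dnmt3b at 0.05 and Dnmt3l at 0.25, and only the deaminase gene Apobec1 rose in the list of 14 (1.54 ± 0.20).

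Of 9 paternally expressed imprinted genes tested, 4 rose and none fell (median 0.46). Snrpn, a splicing protein gene of the Prader-Willi region, stood at 10.11 and 9.98 against 7.89 and 8.05 (2.07 ± 0.14), between pNSC, where it was at 4.72 and 4.45, and fESC, at 12.86 and 12.86. Mest, an alpha/beta hydrolase family gene, stood at 7.28 and 7.73 against 4.83 and 4.91 (at least 3.94-fold), with 4.39 and 4.48 in pNSC and 10.83 and 10.72 in fESC. In both genes piPS-2F lay above both other parthenogenetic lines and below fESC on all arrays. The fourth, Impact (1.01 ± 0.15), was lost in 4 alternatives, among them those without replicate 1 of either line. Inpp5f stood at 8.16 and 7.78 against 6.42 and 6.38, but at 9.73 and 9.56 in pNSC. Igf2, Ndn and Dlk1 differed by 0.30, 0.39 and -0.76. Among 15 maternally expressed genes 3 fell: Grb10, an adaptor that restrains growth, by 1.64 ± 0.22, Gnas, a G protein subunit gene, by 1.31 ± 0.15 and H13, a signal peptide peptidase gene, by 1.23 ± 0.16, a call that ended with averaged probes. Dcn, imprinted in placenta and a fibroblast gene, rose (1.18 ± 0.26). Igf2r and Cdkn1c differed by -0.48 and 0.19.

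**Figure D3:**
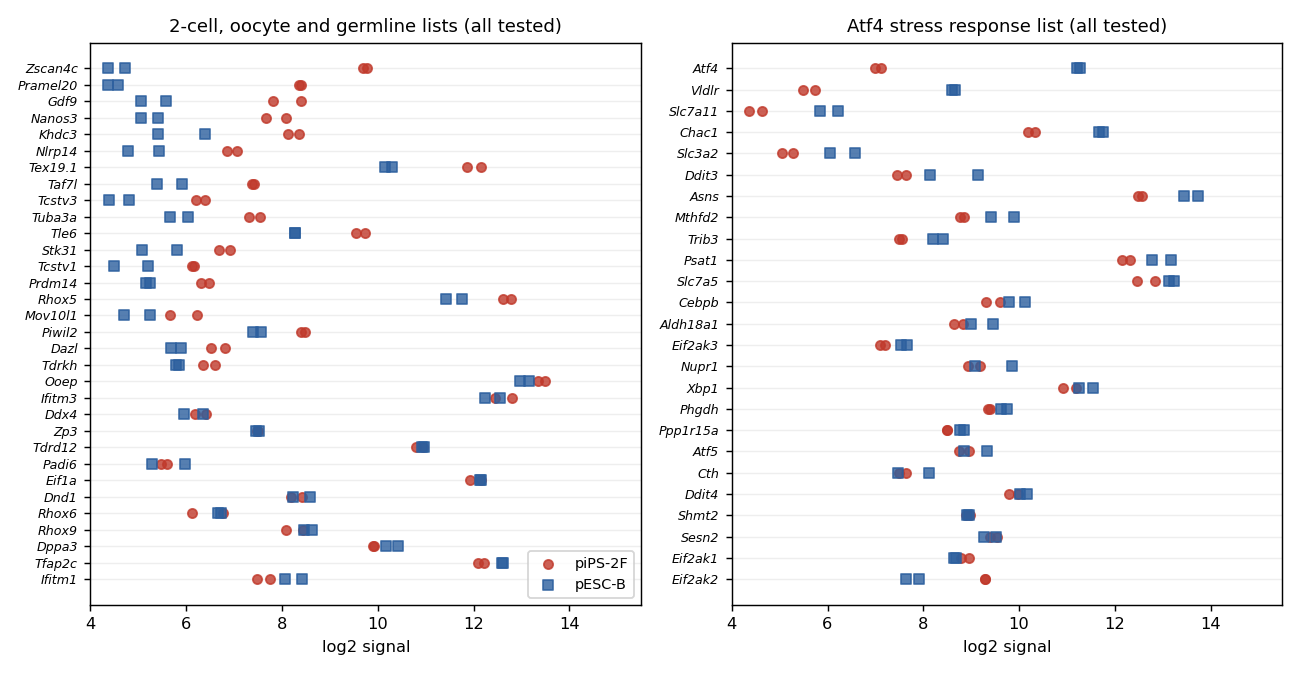
Log2 signal (x axis) of every tested gene of the 2-cell, oocyte, germline and germ cell specification lists (left) and of the Atf4 stress response list (right), ordered by their difference, with 2 red circles (piPS-2F) and 2 blue squares (pESC-B) a gene. On the left the upper rows, Zscan4c to Rhox5, have red to the right of blue; on the right most rows have red to the left, Atf4 and Vldlr by the widest gaps (-4.19 and -3.02), and Eif2ak2 at the foot runs the other way.

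Atf4 is the transcription factor at the centre of the amino acid and endoplasmic reticulum stress response: when the initiation factor eIF2 is phosphorylated, Atf4 protein accumulates and activates genes for amino acid uptake and synthesis and for cell death. Atf4 stood at 7.12 and 7.0 in piPS-2F and 11.28 and 11.22 in pESC-B (-4.19 ± 0.13, adjusted p = 1.1e-08, 1 probe). It was also high in fESC (11.82 and 11.96) and low in pNSC (7.52 and 7.66) and fNSC (8.10 and 8.06). Of 25 tested genes of the response 7 fell and 1 rose, and 4 of 25 lay above 0 (median -0.49). With an offset of 50, and without pESC-B replicate 1, 4 fell. Of 16 target genes 5 fell (median -0.64).

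Vldlr, a lipoprotein receptor gene, stood at 5.73 and 5.48 against 8.66 and 8.60 (-3.02 ± 0.13), and its other probes fell as well (to -2.28 at the least). Chac1, which degrades glutathione, fell from 11.67 and 11.76 to 10.34 and 10.19 (-1.45 ± 0.13). The cystine transporter gene Slc7a11 was undetected in piPS-2F and at least 1.48-fold lower, a call that ended with an offset of 50, and its partner subunit Slc3a2 at least 1.79-fold lower. Asns, asparagine synthetase, fell by 1.06 ± 0.14 with its 3 probes between -1.10 and -1.06, and Ddit3, the cell death regulator CHOP, fell by 1.09 ± 0.26; Chac1 and these last 3 genes fall outside the naming rule and were chosen after their values were seen. Eif2ak2, the RNA-activated eIF2 kinase, rose by 1.52 ± 0.14 (9.29 and 9.29 against 7.63 and 7.92). Uncalled members were Trib3 at -0.78, Psat1 at -0.74, Mthfd2 at -0.85 and Atf5 at -0.24. Among transporters, 3 of 15 amino acid carriers fell and none rose, the third being the glycine transporter gene Slc6a9 (-1.21 ± 0.19), which was lost when piPS-2F replicate 2, or else replicate 1 of pESC-B, was left out.

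Promoter windows from RefSeq (GRCm38.p6, 300 bases that span a transcription start and lie mostly before it) were read for the Atf4 element TGATGNAA on both strands, because several of these genes fell together with Atf4. All 8 called genes of the list had a window, and 4 of them held the element, Asns, Chac1, Slc7a11 and Vldlr. Of 15 uncalled members with a window 2 did, Nupr1 and Trib3. The element occurred in 3.97% of all 32851 windows and in 2.30% of the 8229 windows of tested genes. The list was composed of known targets, so the matches are a description. The windows that hold it follow, with the element, or its reverse complement where it lies on the other strand, in capitals.
Chac1, chr2:119350992-119351291, plus strand: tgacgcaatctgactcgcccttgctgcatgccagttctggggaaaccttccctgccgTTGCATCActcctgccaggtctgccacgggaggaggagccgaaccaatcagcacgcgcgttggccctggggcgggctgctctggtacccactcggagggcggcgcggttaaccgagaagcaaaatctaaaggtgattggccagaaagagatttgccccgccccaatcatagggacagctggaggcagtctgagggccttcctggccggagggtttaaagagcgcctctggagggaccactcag
Asns, chr6:7693160-7693459, minus strand: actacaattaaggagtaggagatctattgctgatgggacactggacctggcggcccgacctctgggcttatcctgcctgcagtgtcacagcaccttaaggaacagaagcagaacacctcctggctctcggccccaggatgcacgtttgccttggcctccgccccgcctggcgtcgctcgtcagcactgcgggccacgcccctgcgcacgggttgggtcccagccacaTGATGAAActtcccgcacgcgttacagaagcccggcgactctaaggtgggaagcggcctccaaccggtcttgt
Slc7a11, chr3:50443564-50443863, minus strand: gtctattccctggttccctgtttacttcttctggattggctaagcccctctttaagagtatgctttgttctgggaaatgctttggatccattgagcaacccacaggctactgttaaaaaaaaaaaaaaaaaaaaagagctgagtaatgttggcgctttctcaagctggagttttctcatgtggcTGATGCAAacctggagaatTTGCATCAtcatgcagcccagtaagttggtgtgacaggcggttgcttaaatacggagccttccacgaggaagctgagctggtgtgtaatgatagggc
Vldlr, chr19:27216770-27217069, plus strand: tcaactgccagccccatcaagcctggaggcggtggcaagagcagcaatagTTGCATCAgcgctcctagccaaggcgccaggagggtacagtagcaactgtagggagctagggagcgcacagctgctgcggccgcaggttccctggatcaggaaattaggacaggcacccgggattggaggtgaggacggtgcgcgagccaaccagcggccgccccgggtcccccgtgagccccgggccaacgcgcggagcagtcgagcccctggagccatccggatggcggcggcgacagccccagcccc
Slc7a11 held the element 2 times, once on each strand, and the other 3 windows held it once. The Vldlr window with the element is that of the second of 2 annotated starts.

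Immediate early genes are the first to respond to growth factors and to cell handling. Of 19 tested 5 fell, none rose, and 3 of 19 lay above 0 (median -0.41). Fosb stood at 6.17 and 6.65 against 9.47 and 9.49 (-3.07 ± 0.37) and Fos at 8.86 and 8.94 against 11.65 and 11.52 (-2.69 ± 0.19). In fESC Fos was at 7.89 and 8.57 and Fosb at 4.93 and 6.34, so pESC-B was the highest of the 3 pluripotent lines. Atf3 was at least 2.17-fold lower and the antiproliferative gene Btg1 fell by 1.34 ± 0.15. Jun, Junb and Jund differed by -0.41, -0.18 and -0.10. As pESC-B alone is labelled as sorted, sorting and line cannot be told apart here.

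FGF signalling through ERK drives mouse embryonic stem cells toward differentiation. Of 24 genes tested 5 fell and 1, Eras, rose (25% called, against 11% of all genes, median -0.05). Among ligands Fgf8 stood at 5.48 and 5.43 against 8.22 and 8.91 (-3.11 ± 0.19), with 5.22 and 5.39 in fESC, while Fgf4, the main ligand of these cells, differed by 0.11 and Fgf5 by -0.87. Neither receptor was called (Fgfr1 0.06, Fgfr2 -0.57). Of 5 feedback inhibitors, 3 fell: Dusp6, the ERK phosphatase, stood at 10.95 and 11.09 against 12.10 and 12.22 (-1.14 ± 0.14), Dusp4 fell by 1.16 ± 0.16 and Spred1 by 1.05 ± 0.15. The call of Dusp4 ended when its probes were averaged. Among targets Fos fell, and Egr1, Etv4 and Etv5 differed by -0.80, 0.55 and -0.06.

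Several genes that mark the primitive streak fell. Mixl1, a target of Nodal, undetected in piPS-2F at 4.41 and 4.47, stood at 6.35 and 6.47 in pESC-B (at least 1.93-fold), and was undetected in the other lines at 4.38 to 4.74. Eomes was at least 1.61-fold lower, a call that ended with an offset of 50 or without pESC-B replicate 2. Of 6 streak and mesoderm genes tested, 3 fell (Fgf8, Mixl1 and Eomes). Otx2, a primed epiblast and forebrain factor, rose from 7.16 and 7.74 to 9.44 and 9.43 (1.98 ± 0.24). Of 21 Nodal and TGF-beta genes (23.8% called, against 11% of all genes) 4 fell, among them Fst, an activin antagonist (-1.49 ± 0.22). Inhbb, an activin subunit, rose by 1.24 ± 0.13. Nodal and its inhibitors Lefty1 and Lefty2 differed by 0.62, -0.52 and -0.14.

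Of 28 Wnt genes 3 fell and 1 rose (14.3% called, against 11% of all genes), and 4 of 28 lay above 0 (median -0.33). Sp5, a direct target of beta-catenin, stood at 8.71 and 7.94 against 10.53 and 10.80 (-2.34 ± 0.21), with 6.91 and 6.87 in fESC. The ligand gene Wnt3a fell by 1.09 ± 0.26 and Dvl2 was at least 1.97-fold lower, and both calls ended with an offset of 50. The call of Wnt3a ended also when piPS-2F replicate 2, or else replicate 1 of pESC-B, was left out. The co-receptor gene Lrp6 was at least 3.39-fold higher. The targets Axin2 and Ccnd1 differed by -0.83 and -0.78. Of 15 Notch genes (26.7% called) 3 fell, led by the target Nrarp (-1.38 ± 0.27), and 1 rose, the glycosyltransferase gene Mfng (1.29 ± 0.28). Of 13 BMP genes (23.1% called) the targets Id4 (at least 1.44-fold) and Id2 (by 1.28 ± 0.21) fell, while the inhibitor gene Smad6 rose by 1.12 ± 0.17. With an offset of 50 no Notch or BMP gene was called, and without pESC-B replicate 1 only 1 Notch gene fell and Smad6 was not called. Smad6 was also lost without piPS-2F replicate 1, Id2 without piPS-2F replicate 2, Nrarp without piPS-2F replicate 1 and Mfng without pESC-B replicate 2.

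Of 24 epithelial genes tested 6 fell and none rose (median -0.59). The tight junction genes Tjp3 (6.13 and 5.81 against 7.68 and 7.99, a difference of -1.86 ± 0.16), Cldn6 (-1.50 ± 0.14) and Cldn4 (-1.41 ± 0.13) fell, and Cldn3, undetected in piPS-2F, was at least 1.82-fold lower. Cdh1 (E-cadherin) differed by -0.56, Krt8 by -0.58 and Krt18 by 0.34. Of 7 mesenchymal regulators Zeb1, a repressor of E-cadherin, rose by 1.05 ± 0.15, a call lost with an offset of 50, with median scaling or without pESC-B replicate 2. Of 18 guidance genes 4 fell and none rose (22.2% called, against 11% of all genes). These were Sema5a (-1.90 ± 0.17), the ephrin receptor genes Epha1 (-1.53 ± 0.14) and Epha7 (at least 1.3-fold) and the ligand gene Efna5 (-1.10 ± 0.22). The calls of Cldn3, Epha7 and Efna5 ended with an offset of 50, and that of Efna5 also without piPS-2F replicate 1.

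Of 9 feeder fibroblast genes tested 4 rose and none fell (median 0.59), and 2 rose with an offset of 50 or without piPS-2F replicate 2. Lox, which cross-links collagen, stood at 9.65 and 10.18 against 8.38 and 8.01 (1.72 ± 0.20), Acta2 rose by 1.12 ± 0.14, Dcn by 1.18 ± 0.26 and Col1a1 by 1.02 ± 0.22. Of 7 fibroblast markers 3 were detected on both arrays of each line, and the summed linear signal of all 7 was 651.1 to 986 in piPS-2F and 481.4 to 522.5 in pESC-B. This sum was 638.4 to 672.8 in pNSC, 816.9 to 898.3 in fESC and 189 to 196.9 in fNSC. The defining markers Col1a2, Col3a1 and Postn were undetected in both lines. With an offset of 50 the calls of Dcn and Col1a1 ended. The calls of Acta2 and Col1a1 ended also without piPS-2F replicate 2, Col1a1 also without pESC-B replicate 2, and Dcn without pESC-B replicate 1. RNA from bulk cultures does not tell which cells these transcripts came from. More fibroblasts, more RNA per fibroblast and more RNA from the line's own cells cannot be told apart. The part of the SSEA-1 sort was not tested. Of 6 neural stem cell markers, Pax6 and Fabp7 were undetected in both lines, and the summed signal of all 6 was 701.1 to 701.3 in piPS-2F and 3130 to 3407 in pESC-B, where Olig1 made up most of it. Among the neuron, oligodendrocyte, blood, endoderm, trophectoderm and mesoderm markers, Tubb3, Dcx, Mog, Ptprc, Sox17, Elf5, Krt7, Mesp1 and Kdr were undetected in both lines. Other members of these sets were detected on both arrays of each line: Stmn2 (10.30 to 10.93), Map2, Mbp, Gata6, Dab2, Cdx2 and Gata3. So were the neural stem cell markers Nes and Slc1a3. Aif1 was detected on both piPS-2F arrays and neither pESC-B array.

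Of 18 lysosomal enzyme genes 5 fell and none rose (median -0.66). Beside Ctsc these were Neu1, a sialidase (8.48 and 8.22 against 9.92 and 10.07, -1.65 ± 0.16), Hexa, the Tay-Sachs enzyme (-1.52 ± 0.12), Idua (-1.77 ± 0.41) and Gaa (-1.10 ± 0.16, outside the naming rule). Idua was lost without replicate 1 of either line. The 6 lysosomal membrane proteins and regulators had no call (median -0.45), and of 18 autophagy genes Atg3 fell (-1.50 ± 0.18). Glutathione and redox genes split, with Gsta3, Txnip and Gss higher and Gstm2 (-1.94 ± 0.14), Gstt2 and Gstm1 lower among 33. In one-carbon metabolism 3 of 18 fell (16.7% called, against 11% of all genes), led by Ahcy, which clears S-adenosylhomocysteine (-1.44 ± 0.17). With an offset of 50 or on the 4 arrays alone 1 fell.

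Of 14 interferon response genes 28.6% were called, against 11% of all genes. Of these, 3 rose, Ifit3 (at least 2.44-fold), Isg15 (at least 1.84-fold, lost with an offset of 50) and Oas1a (at least 1.06-fold, lost under 4 alternatives), while Gbp2 fell by 1.16 ± 0.15. Their signals in piPS-2F were low, with Ifit3 at 6.21 and 7.42 and Isg15 at 6.15 and 6.66. Of 7 retinoic acid genes 3 receptors rose, Rxra (7.83 and 7.60 against 5.84 and 6.07, 1.76 ± 0.18), Rarg (1.12 ± 0.14) and Rxrg (at least 1.27-fold). Rarg was lost with averaged probes, its other probe giving 0.44, and without piPS-2F replicate 2, and Rxrg with an offset of 50, with median scaling and on the 4 arrays alone. Zfp985, a zinc finger protein gene, rose from 8.91 and 8.82 to 11.75 and 11.70 (2.86 ± 0.13), with 11.83 and 11.52 in fESC. The list of SSEA-1 and general glycan synthesis genes had no fall. Of 16 tested (12.5% called, against 11% of all genes) A3galt2 and St3gal1 rose, St3gal1 with a call lost in 6 alternatives. A link of these 2 genes to the epitope was not tested. Fut9, which makes the epitope in these cells, was undetected in both lines.

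The large housekeeping groups differed in few members. Of 54 cytosolic ribosomal protein genes 1 fell, Rpl22 (-1.04 ± 0.14), of 69 respiratory chain genes Ndufb10 rose (1.19 ± 0.20), and of 67 mitochondrial ribosome genes Mrpl22 and Mrpl45 rose. Each of these 4 calls was lost without 1 or other of the arrays: Rpl22 without replicate 1 of either line, Ndufb10 without pESC-B replicate 2, Mrpl22 without replicate 2 of either line and Mrpl45 without pESC-B replicate 1. None of 38 translation factor, 23 glycolysis or 17 RNA polymerase genes was called. Of 37 replication genes Mcm3 rose (1.07 ± 0.13) with 28 of 37 above 0 (median 0.27). Of 30 proteasome genes Psmb5 fell (-1.76 ± 0.19), and of 38 repair genes Apex1 fell by 1.63 ± 0.14 on 1 probe while its other probe gave -0.07. Over all 71 lists, 161 of 1445 tested genes were called, much the same share as over all genes (859 of 7830, 11%). Of the called genes, 698 belonged to no list.

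**Figure D4:**
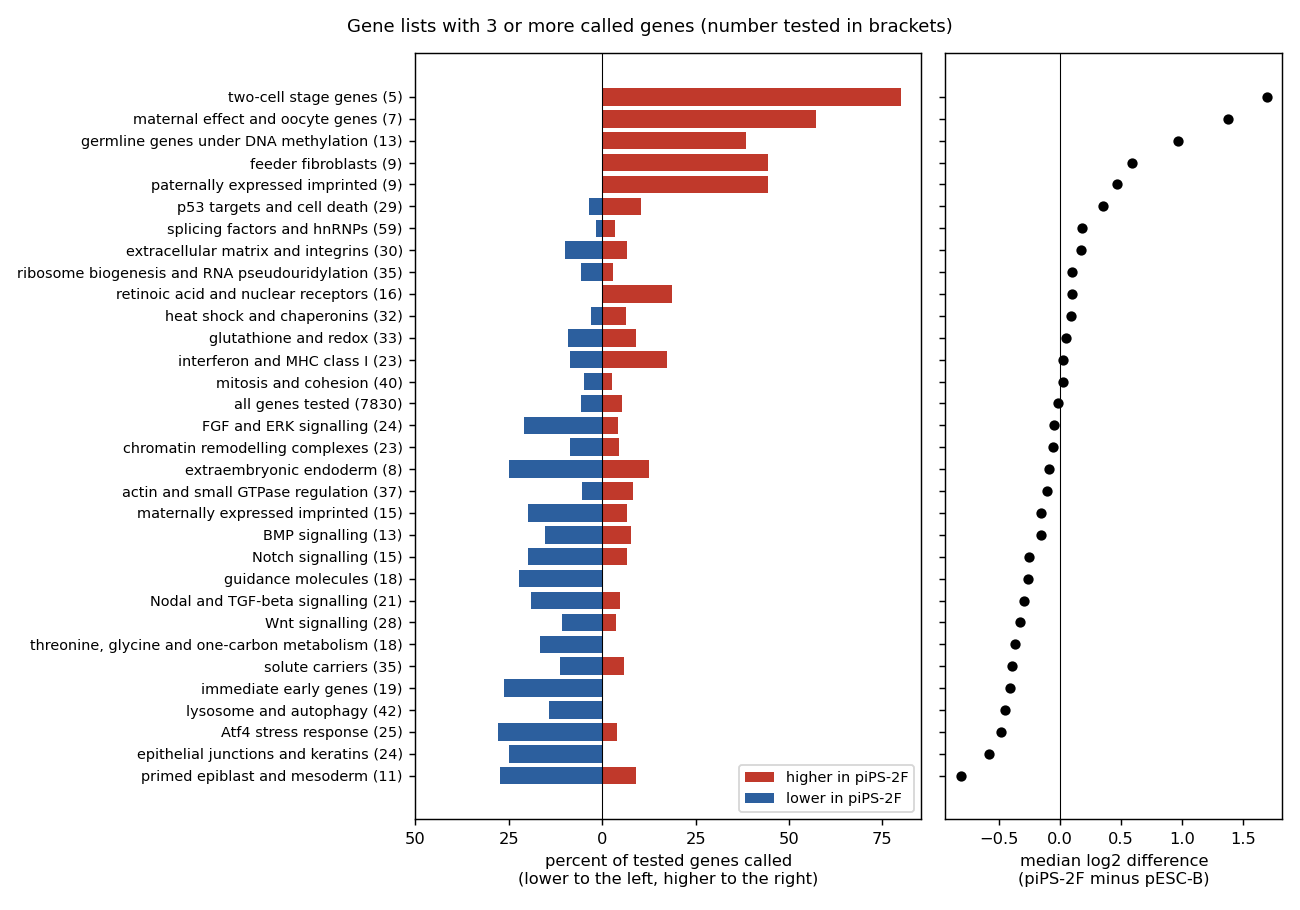
Percent of tested genes called lower (blue, leftward) and higher (red, rightward) in piPS-2F for the lists with 3 or more called genes and for all 7830 genes, with the number tested in brackets, and on the right the median log2 difference of each list. The 2-cell, oocyte and germline lists stand at the top (medians 1.70, 1.38 and 0.96). At the foot are the Atf4 list (-0.49), the epithelial list (-0.59) and the joint primed epiblast and mesoderm list (-0.82). In this joint list the 5 primed epiblast genes had a median of 0.05 and the 6 streak or mesoderm genes -1.12. Several tested members of the 3 top lists passed the detection filter only through piPS-2F and had to be higher there, which raises these medians.

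Genes on chromosome 1 and on the X chromosome lay higher in piPS-2F as a whole. On chromosome 1 the median difference was 0.42 over 374 genes, 284 of them (75.9%) above 0, and 51 rose (13.6%) and 15 fell (4.01%). On the X it was 0.36 over 270 genes, 201 of them (74.4%) above 0, and 42 rose (15.6%) and 10 fell (3.7%). Over all genes tested 48.5% lay above 0, 5.26% rose and 5.71% fell. With no detection filter the medians were 0.1 on chromosome 1 and 0.105 on the X. The other chromosomes had medians between -0.12 and 0.07. Each piPS-2F array against each pESC-B array gave a median of 0.41 to 0.42 on chromosome 1 and 0.34 to 0.40 on the X, so the shift was larger than the spread between duplicates. Many of the single rises above lie there: Slc4a3, Crygd, Rcsd1, Gsta3, Inhbb, Prdm14, Mcm3, Idh1, Sdhc, Mars2, Cops7b and Pfdn2 on chromosome 1, and Xlr4a, Fmr1nb (3.09 ± 0.17), Ldoc1 (3.05 ± 0.15), Eras, Taf7l, Rhox5, Tsr2 and Nsdhl on the X. Falls were not absent from chromosome 1, which also holds Cops8, Apoa2, Mixl1 and Atf3.

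Along chromosome 1, all 7 stretches of 50 neighbouring tested genes had a median above 0, from 0.23 to 0.57. Along the X the 5 stretches ranged from 0.16 to 0.77, and the highest, from Ldoc1 to Pdk3, had 47 of 50 genes above 0, with 20 called higher and 0 lower. Against fESC, whose arrays were brighter (476.2 and 495), chromosome 1 had a median of 0.75 in piPS-2F, where the autosomes other than 1 had 0.23. In pESC-B the same medians were 0.26 and 0.26. For the X the median against fESC was 0.05 in piPS-2F, where those autosomes had 0.23. In pESC-B it was -0.30, where they had 0.26. The X thus lay below those autosomes in both lines. Between pNSC and fNSC chromosome 1 and the X had medians of 0.00 and -0.03. Xist, the RNA of the inactive X, stood at 6.79 and 7.25 against 6.09 and 6.09 (0.93 ± 0.29, adjusted p = 0.028, under the 2-fold minimum), and at 9.47 to 10.33 in the neural lines. A second, dimmer Xist probe differed by 1.57 ± 0.23, past 2-fold the same way. The part of Xist in these medians was not tested.

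**Figure D5:**
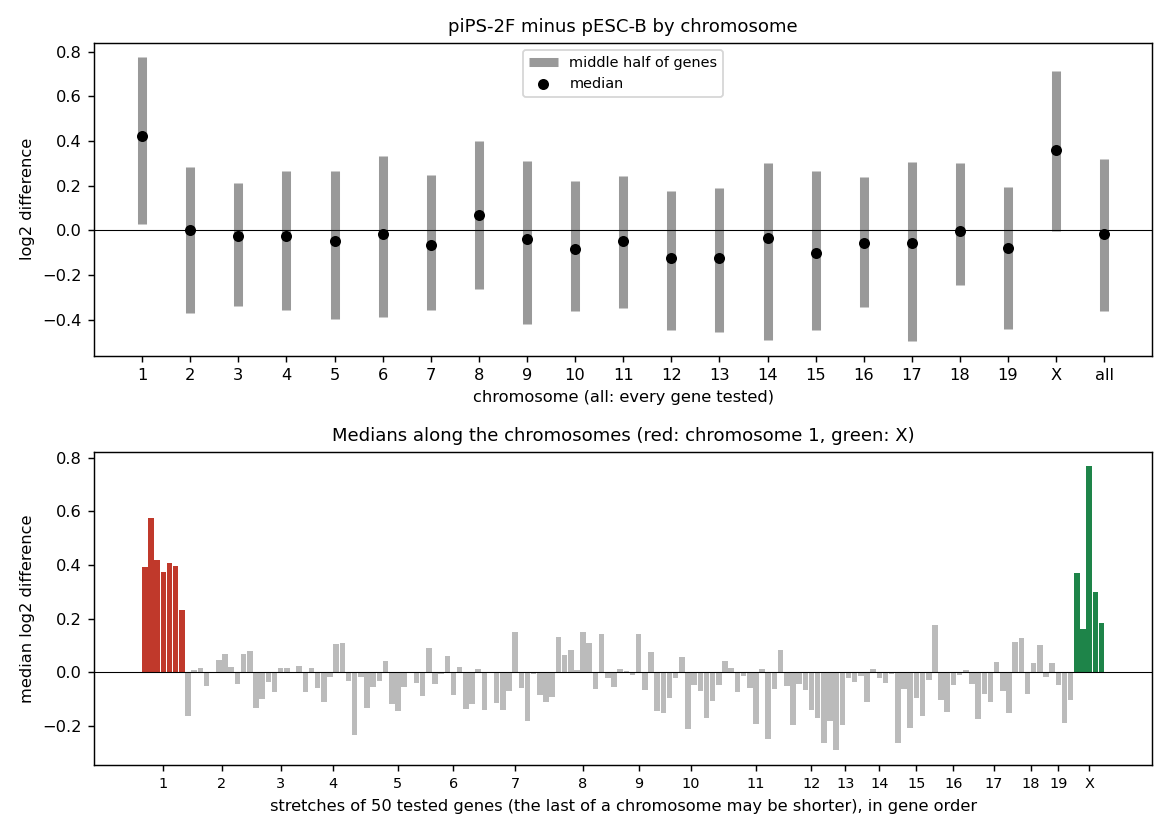
Top, median log2 difference (black point) and middle 50% of genes (grey bar) on each chromosome and over all genes. Bottom, median log2 difference of successive stretches of 50 tested genes along each chromosome; all 7 bars of chromosome 1 (red, 0.23 to 0.57) and all 5 of the X (green, 0.16 to 0.77) are above 0.

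Where several probes read a gene they mostly ran the same way. Of 156 called genes with more than 1 kept probe, every other probe had the same sign in 145 and passed 2-fold in 79. In 33 (21.2%) another probe differed by under 0.5 or went the other way. All 4 probes of Ap1m2, an adaptor subunit of epithelial protein sorting, fell, with differences of -2.36 to -1.90, and so did all 3 of Vldlr, with -3.02 to -2.28. Nup50, a nuclear pore gene, differed by 0.70 on its brightest probe and by -3.12 and -2.84 on the others, and Skp2 by -0.25, 0.21 and -2.34. The condensin gene Ncapg2 fell by 1.57 on the probe used, while another, brighter in these lines, gave 1.58. Of 160 called genes named by the rule, 93 kept their call in every alternative that tested them. Several alternatives, among them the replicate block and those without an array of another line, left every difference unchanged.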

How the data were processed

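The authors deposited, for each array, a linear probe intensity from which background had been subtracted (every array holds values below 0) and, per the file headers, a detection p-value. They also deposited normalized values, taken as log2 from their range, and used here as an alternative only. BeadStudio 3.2, RMA and lumi are named per the submitters' processing notes, which give no order or settings. All 10 arrays were background corrected with normexp, given an offset of 16, quantile normalized and taken to log2 (neqc, limma 3.58.1, R 4.3.3). Of 25697 probes, 23978 had 1 gene symbol and 1719 none in the platform annotation. A gene was represented by its kept probe of highest mean log2 signal over all 10 arrays, which is not always the brightest in the 2 lines compared (for Ncapg2 the brighter one there differs in sign). A linear model over all 5 lines, which share 1 estimate of spread, gave moderated tests with Benjamini-Hochberg adjustment over 7830 genes. The number of arrays limits the precision. The model fit and the calling rule were tested on simulated gene levels. Background correction, normalization, the detection filter and the choice of probe were not tested in this way.

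Genes were named by rule: the 15 largest called differences each way, up to 4 called and 3 uncalled members of each of 71 gene lists, the 6 largest lower bounds each way, and leading genes of shifted chromosomes and of multi-probe genes. Lists were chosen with earlier results of these data known, so they are no independent support. Genes named outside the rule (Asns, Chac1, Slc3a2, Ddit3, Gaa, Atg3, Dusp6, Spred1, Gbp2, Gss, Gstm1, Rhox5 and further uncalled list members given as values) were chosen after their values were seen. Alternatives changed the offset, background, scaling, filter, probe rule, model and arrays.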

Additional observations from a re-analysis of the deposited data

How the results depend on the processing

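Against 859 called genes (412 higher, 447 lower), an offset of 50 gave 475 (223 and 252), no background correction 1207 (558 and 649), probes detected on all 4 arrays 488 (213 and 275), and no fold minimum 2925 (1370 and 1555). Median scaling gave 751 (257 higher and 494 lower), the 4 arrays normalized and fitted alone 697 and the authors' values 1162 (557 and 605). The remaining alternatives gave 843 to 871, and leaving out each array in turn 858 to 942, of which 748 to 859 were shared with the reported genes. Leaving out an array of fNSC, pNSC or fESC gave 858 or 859, but it changes only the estimate of spread and not the differences. Called list members numbered 104 with an offset of 50, 106 on all-detected probes and 555 with no fold minimum, against 161. The cause of these changes was not tested, except that the all-detected filter removed 367 called genes.

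The chromosome 1 median of 0.42 became 0.353 with an offset of 50, 0.46 with no background correction, 0.305 with median scaling, 0.401 on the 4 arrays alone, 0.468 on the authors' values, 0.332 and 0.375 with probes detected in any group and on all 4 arrays, 0.1 with no filter, 0.411 with averaged probes and 0.408 to 0.432 without 1 array. The X median of 0.358 became 0.308, 0.4, 0.245, 0.414 (authors' values), 0.288 (any group) and 0.105 (no filter) in the same order. Median scaling lowered the median of all genes as well, from -0.0167 to -0.138, so its 2 lower chromosome medians are to be read against that. Of the genes lower in piPS-2F, 14% to 18.9% were lower in pNSC under the alternatives run. The share over all genes moved the same way at these ends. It was 4.14% beside the 14% (offset of 50) and 6.89% beside the 18.9% (authors' values). Ncapg2 turned to 1.57 on the 4 arrays alone, 1.58 on all-detected probes and 0.005188 with averaged probes, and Nup50 to -1.76 with averaged probes, because their probes differ in sign. Of 160 named called genes 66 lost their call in at least 1 alternative and 26 of 199 uncalled ones gained it. Deviations of arrays with the same replicate number correlated at -0.06, so the numbers did not pair the arrays. The fit with the replicate block called the same 859 genes. It leaves each difference unchanged, and the fold minimum set the count, so this count could hardly move.

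Signal over background limits the lists of low genes: 271 and 192 genes were detected in 1 line only, and their folds are lower bounds.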
